A study of Homo sapiens with 6 samples.

Results

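The Wnt pathway was read out through 50 genes that encode its ligands, receptors, inhibitors and core signal transducers, chosen by gene name. Of these, 47 had a row in the table of 21494 genes and 43 passed the filter on low counts and were tested. LGR5, WIF1 and LEF1 were not analysed here, as the table analysed lists only genes whose counts sum to at least 10 over the 6 samples, and WNT10B, WNT11, FZD8 and NKD2 fell below the filter and are given as levels only. RNA-seq libraries from 3 samples of human cells stably expressing a control shRNA (Control sh) were compared with 3 samples stably expressing a single shRNA against DCAF1 (VprBP sh), which encodes VprBP, a substrate receptor of the CUL4 ubiquitin ligase that the study describes as a histone H2A kinase. The labels name the cell line as G361, a melanoma line, in every sample, give the genotype as WT for the control samples and DCAF1 Knockdown for the others, and give LD611 as the source name. Per the study's methods, the shRNA was delivered by lentivirus and infected cells were kept under puromycin, so both groups carry a vector. Nothing in the labels says whether the 3 samples of a group came from separate cultures, and p-values measure only the spread between these samples, which may be technical.

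Wnt proteins are secreted, lipid-modified ligands that bind Frizzled receptors together with co-receptors. In the canonical branch, binding to a Frizzled and LRP5 or LRP6 stops a complex of AXIN, APC and GSK3B from marking beta-catenin for destruction, and beta-catenin then enters the nucleus and activates genes with TCF and LEF factors. Other branches run through ROR and RYK receptors or planar cell polarity proteins and do not need beta-catenin. In the melanocyte lineage, Wnt signalling is known for its part in specifying pigment cells from the neural crest, and in melanoma WNT5A and its receptor ROR2 are widely studied.

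Facts of the whole series bear on every value below. Total estimated counts per sample ran from 18195949 to 26883948, and 3 counts, taken as the floor of detection, corresponded to 2.28 to 3.44 normalized counts, which are counts divided by upper quartile factors. DCAF1 itself had 789, 961 and 830 normalized counts in Control sh replicates 1, 2 and 3 and 753, 502 and 477 in VprBP sh (log2 fold change -0.58, standard error 0.17, adjusted p = 0.0125 from edgeR). The groups did not overlap in normalized counts, but the difference in DCAF1 RNA was under 2-fold. In counts per exon length scaled to the same sum in every sample (TPM), the groups did overlap. Control sh replicates 1, 2 and 3 had 20.3, 24.8 and 21.3 TPM, and VprBP sh had 21.4, 14.0 and 13.0. These are RNA levels, and VprBP protein, which the paper examined by Western blot in G361 cells, was not measured here. The DCAF1 log2 fold change did not pass the adjusted p when scaled by library size alone (-0.37, adjusted p = 0.0851) or with replicates 2 and 3 summed (-0.46, adjusted p = 0.0839). Of 13 melanocyte markers, 6 were analysed, 3 were tested and 0 called, and their summed level was 234 to 287 normalized counts in Control sh samples and 307 to 391 in VprBP sh samples. MITF had 160 to 186 and 203 to 263 normalized counts, MLANA and TYRP1 had under 5 in every sample, and TYR, DCT and SOX10 were not analysed here. Of 16 urothelial and epithelial markers, 14 were analysed, with a summed level of 277020 to 294297 normalized counts in Control sh samples and 94174 to 124690 in VprBP sh samples. Of the 13 that were tested, 2 were called up and 7 down, while 46.4% of all genes tested were called. KRT14, a basal keratin, had 71674 to 81585 normalized counts in the control samples and 0.76 to 11.1 after knockdown, and TP63 had 8254 to 10000 and 8.23 to 9.95, while GATA3 had 0 to 8.03 and 1372 to 1746. UPK1B was at 574 to 690 normalized counts in Control sh and at 0 in VprBP sh. KRT5 (55295 to 69161 and 2656 to 5000), KRT13 (3144 to 4990 and 3.09 to 9.95), KRT17 (39132 to 45370 and 316 to 521) and UPK2 (202 to 218 and 28.7 to 55.4) were also called down. KRT19, KRT18, EPCAM, KRT7 and CDH1 stayed high. KRT19 was called up, at 27784 to 29409 in Control sh samples and 38742 to 67907 in VprBP sh samples. KRT18 (11407 to 12858 and 16329 to 18640) and EPCAM (4362 to 4476 and 5686 to 6559) were higher but not called. KRT7 (33848 to 36446 and 17365 to 23458) and CDH1 (9598 to 10640 and 5539 to 7007) were lower but not called. Of 7 fibroblast markers, 5 were analysed, with summed levels of 760 to 801 and 454 to 596. Most of that sum was COL1A1 (650 to 709 and 450 to 594), which was not called. Of the 4 tested, 3 were called down, against 22% of all genes. These were COL1A2 (37.5 to 45.9 and 0 to 0.76), LUM (21.5 to 35.7 and 0) and PDGFRB (14.0 to 32.1 and 2.06 to 4.55). Mitochondrial genes took 1.96% to 1.98% of the total in Control sh samples and 4.10% to 4.48% in VprBP sh samples. These differences run with the groups, and their part in the results below was not tested. The labels give 2 names for the cells in every sample, and a difference between the cells of the groups that preceded the knockdown cannot be told apart from an effect of the shRNA in any value below. In bulk RNA of this kind, fewer cells of a type and less RNA per cell cannot be told apart.

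Sequence around the transcript start was taken from RefSeq (GRCh38.p14), where 33 of the 50 genes matched 42 windows of 250 bases before to 50 bases after a start. The genes without a match were AXIN2, DKK3, FZD2, FZD3, FZD6, FZD7, FZD10, KREMEN1, KREMEN2, LGR5, LRP6, NKD1, SFRP1, WNT7B, WNT10B, WNT11 and ZNRF3. The 42 windows were rich in CG dinucleotides, with a median of 29 per window against 14 for all 35116 windows, and 32 of the 42 lay above that median. WNT6 and WNT10A are shown first because they are neighbours on the plus strand of chromosome 2 and moved in opposite directions, and capitals mark each CG. The WNT6 window, chr2:218859555-218859854, holds 37 of them, and the WNT10A window, chr2:218880602-218880901, holds 30.
WNT6: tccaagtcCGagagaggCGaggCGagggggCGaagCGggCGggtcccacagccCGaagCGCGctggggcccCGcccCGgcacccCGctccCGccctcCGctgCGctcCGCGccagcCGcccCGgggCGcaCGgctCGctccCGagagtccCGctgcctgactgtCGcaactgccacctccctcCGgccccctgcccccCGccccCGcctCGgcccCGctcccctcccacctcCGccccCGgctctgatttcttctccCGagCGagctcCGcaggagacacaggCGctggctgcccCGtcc
WNT10A: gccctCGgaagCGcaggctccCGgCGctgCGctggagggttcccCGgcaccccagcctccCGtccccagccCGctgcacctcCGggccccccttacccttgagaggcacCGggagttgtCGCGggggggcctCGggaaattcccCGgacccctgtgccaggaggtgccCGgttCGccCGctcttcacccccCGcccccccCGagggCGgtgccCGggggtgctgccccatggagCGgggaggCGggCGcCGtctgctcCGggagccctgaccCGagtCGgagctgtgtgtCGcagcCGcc
The core of the TCF and LEF binding motif, CTTTGA, was searched on both strands (read as CTTTGA or TCAAAG on the strand of the gene). It was present in 2 of the 42 windows, those of DKK1 and of the downstream start of PORCN, against 12.9% of all windows. Capitals mark it in these windows, chr10:52314031-52314330 and chrX:48509534-48509833, both on the plus strand. In DKK1 the matches begin 149 and 95 bases before the start, and in PORCN the match begins 9 bases before it. A match describes letters in the window and is no measured binding site.
DKK1: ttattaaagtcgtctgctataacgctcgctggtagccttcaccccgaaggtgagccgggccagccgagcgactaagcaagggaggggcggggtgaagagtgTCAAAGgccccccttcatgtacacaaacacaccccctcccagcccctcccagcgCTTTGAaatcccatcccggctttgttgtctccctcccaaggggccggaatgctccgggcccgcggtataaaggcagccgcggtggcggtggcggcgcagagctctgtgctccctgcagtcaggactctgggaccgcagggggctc
PORCN: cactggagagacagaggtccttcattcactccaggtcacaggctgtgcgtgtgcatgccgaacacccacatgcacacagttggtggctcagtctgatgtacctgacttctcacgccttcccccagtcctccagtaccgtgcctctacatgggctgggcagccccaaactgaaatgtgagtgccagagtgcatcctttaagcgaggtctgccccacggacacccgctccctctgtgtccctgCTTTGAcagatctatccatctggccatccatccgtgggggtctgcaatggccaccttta

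Of the 43 genes tested, 8 were called up and 20 down in VprBP sh, at a Benjamini-Hochberg adjusted p under 0.05 and a fold change over 2. That is 65.1% of them, against a background of 46.4% of all 16756 genes tested, 24.5% up and 22% down. Another 8 genes passed the adjusted p alone, which makes 36 of 43 past the adjusted p at any fold, against 76.4% of all genes. The groups did not overlap in normalized counts for 37 of the 43, against 79.5% of all genes. Their median log2 fold change was -0.73, against 0.08 for all genes, and the median of its absolute value was 1.85 against 0.92. WNT5A, WNT7A, FZD10 and DKK3 had 0 counts in every sample of a group, 4 of 43 against 5.09% of all genes. Changes over 16-fold were seen in 11 of the 43, against 10.8% of all genes, with genes at 0 counts in a group taken at their bound against 3 counts per sample, and both medians were the same with such genes at their bound. These counts describe the list, which was drawn up with results of these data known, and no test was made over it. Of the 43, 6 had under 10 counts in every sample of a group and so passed the filter only through the group where they were high, against 13.8% of all genes tested. With at least 10 counts required in every sample, 34 were tested, and 4 were called up and 15 down. Under that filter 4690 of all 13103 genes tested were called, 2694 up and 1996 down. FZD4 and DKK3 were named with their direction when the list was drawn up. They are counted here, and their values are given below as a description.

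**Figure D1:**
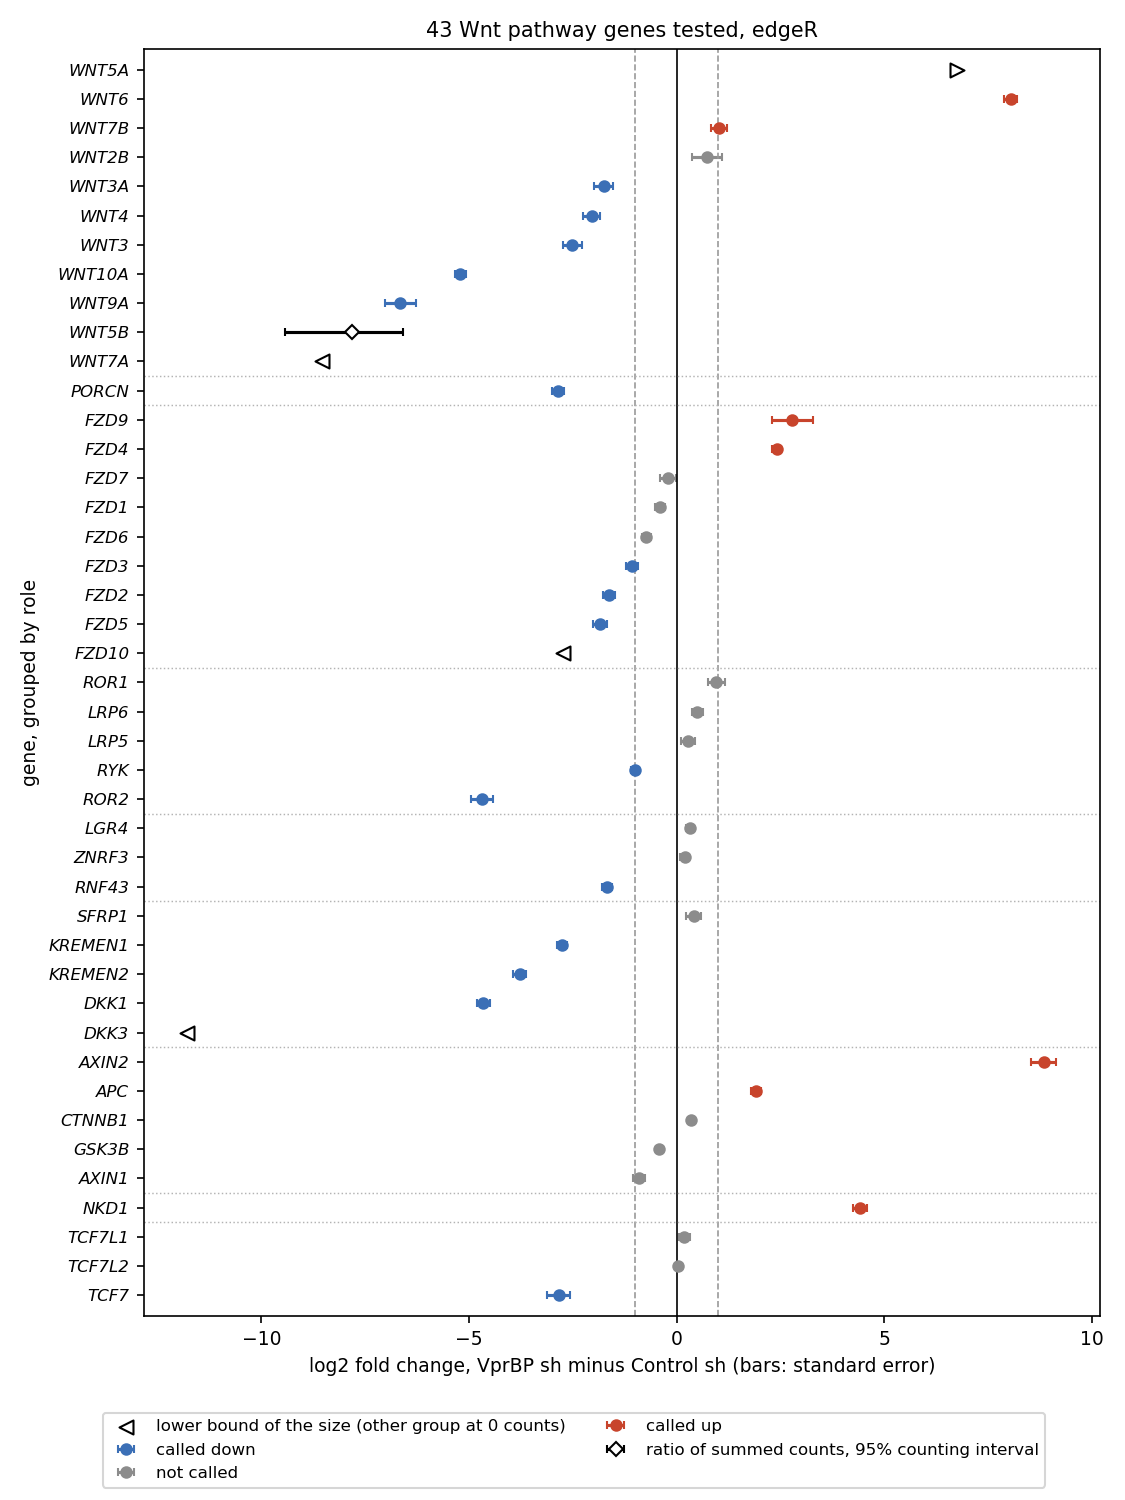
The log2 fold change of each of the 43 genes tested (x axis, VprBP sh minus Control sh) is plotted with its standard error, grouped by role along the y axis and separated by dotted lines, with dashed lines at a 2-fold change. Open triangles give the smallest change compatible with 3 counts per sample where a group was at 0 counts, and the open diamond gives WNT5B as a ratio of summed counts with its 95% counting interval. Ligands spread to both sides. Of the extracellular inhibitors and Dickkopf receptors, DKK1, KREMEN1, KREMEN2 and DKK3 lie to the left of the line at -1, and SFRP1 lies to the right of 0. The direction of DKK3 was known when the list was drawn up, and 22% of all genes tested were called down. AXIN2, APC and NKD1 lie to the right of the line at 1.

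Among the 13 ligands, WNT6, WNT5A and WNT7B rose and WNT10A, WNT7A, WNT9A, WNT5B, WNT4, WNT3 and WNT3A fell. WNT6 had 10.3, 14.0 and 16 normalized counts in Control sh replicates 1, 2 and 3 and 3291, 3876 and 3654 in VprBP sh. Every VprBP sh sample lay far above every Control sh sample, and the log2 fold change was 8.04 (standard error 0.15, adjusted p = 5.16e-10 from edgeR). WNT10A, which starts 6.62 kb beyond the end of WNT6 with no protein-coding gene between them, went the other way. It had 2039, 2252 and 2177 normalized counts in Control sh and 69.6, 56.6 and 50.1 in VprBP sh (log2 fold change -5.21, standard error 0.14, adjusted p = 2.04e-09 from edgeR). WNT6 lies at chr2:218859805-218874233 and WNT10A at chr2:218880852-218899581 of hg38.
WNT5A, the ligand best known for signalling without beta-catenin, had 0 counts in all 3 Control sh samples. In VprBP sh it had 305, 359 and 348 normalized counts, at least 107-fold higher against a floor of 3 counts per sample. Its close relative WNT5B showed the reverse. It had 412, 312 and 336 normalized counts in Control sh and 0, 2.06 and 2.28 in VprBP sh, a ratio of summed counts of 224 (95% interval 95.9 to 693, counting error only). WNT7A and WNT7B also parted. WNT7A had 1049, 1035 and 1146 normalized counts in Control sh and none in any VprBP sh sample, at least 372-fold lower. WNT7B had 1812, 1402 and 1268 normalized counts in Control sh and 2145, 3435 and 3426 in VprBP sh, with no overlap and a fitted log2 difference of 1.01 (standard error 0.19, adjusted p = 0.000893 from edgeR). That call sat at the fold cutoff and was lost in 11 of 16 alternatives, at 0.96 without Control sh replicate 2, 0.90 without Control sh replicate 3 and 0.90 without VprBP sh replicate 2 or 3.
WNT9A and WNT3A are neighbours on chromosome 1, with 59.1 kb between their ends and no protein-coding gene there, and both fell. WNT9A had 1730, 1005 and 1021 normalized counts in Control sh and 22.1, 6.17 and 9.87 in VprBP sh (log2 fold change -6.66, standard error 0.37, adjusted p = 1.94e-07 from edgeR). WNT3A, a ligand much used to activate the canonical branch, had 380, 479 and 460 normalized counts and 78.5, 159 and 149 (log2 fold change -1.76, standard error 0.23, adjusted p = 7.84e-05). Replicate 1 was the highest sample of its group for WNT9A and the lowest for WNT3A, in Control sh and in VprBP sh alike. Over 12112 genes, deviations of the replicate 1 samples from their group means correlated at -0.18 between the groups. WNT4 went from 703, 928 and 833 to 132, 236 and 225 normalized counts, and WNT3 from 170, 164 and 177 to 39.8, 24.7 and 25.8. Their log2 fold changes were -2.05 (standard error 0.21) and -2.51 (standard error 0.22), with adjusted p-values of 1.23e-05 and 4.82e-06 from edgeR.
WNT2B was low in both groups, at 17.2 to 35.6 normalized counts in Control sh samples and 29.6 to 50.8 in VprBP sh samples, and the groups overlapped (log2 fold change 0.72, standard error 0.36, adjusted p = 0.095 from edgeR). Without Control sh replicate 1 it was called, at 1.11 (adjusted p = 0.021). Its exons share 2665 bases with ST7L on the opposite strand, which rose by 1.84 on the log2 scale, and whether counting used strand is not stated. WNT10B and WNT11 were near the floor. WNT10B went from 2, 0 and 2 counts to 17, 9 and 19, a ratio of 10.1 (95% interval 3.68 to 38.6), and WNT11 had 0, 0 and 2 counts and 5, 11 and 7, a ratio of 10.3 (95% interval 2.55 to 90.3).
PORCN, the acyltransferase of the endoplasmic reticulum that attaches the lipid every ligand needs for secretion, fell. It had 1118, 942 and 852 normalized counts in Control sh and 140, 117 and 143 in VprBP sh (log2 fold change -2.86, standard error 0.14, adjusted p = 1.05e-07 from edgeR).

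**Figure D2:**
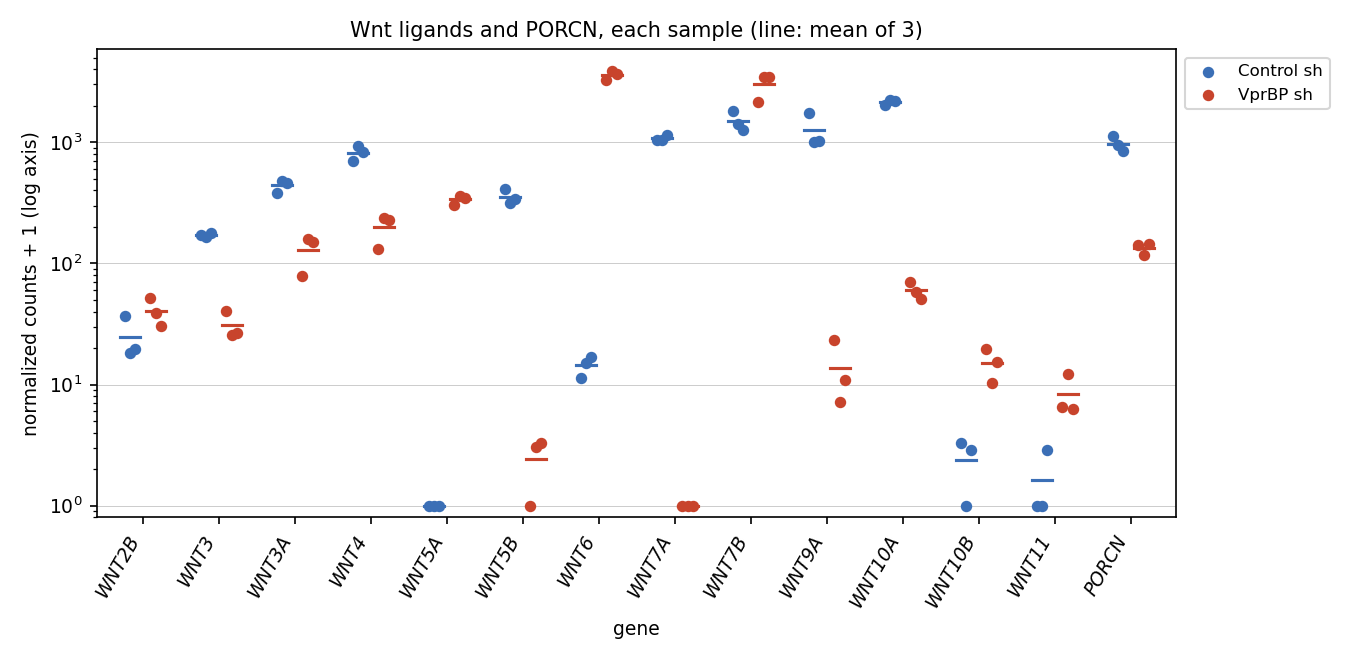
Normalized counts plus 1 (y axis, log scale) are plotted for each sample (points) and as the mean of 3 (lines) for the 13 ligands and PORCN along the x axis, with Control sh in blue and VprBP sh in red. WNT6 and WNT5A are the ligands whose red points stand far above the blue ones, and WNT7A and WNT5B have red points at or near 0 counts.

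To set the ligands against each other, levels were taken per length, as TPM, which are estimated counts divided by exon length and scaled to the same sum in every sample. In Control sh the level was spread over several ligands. WNT10A held 32.7% to 38.6% of the summed ligand TPM, WNT9A 12.5% to 20.2%, WNT7B 12.7% to 16.7% and WNT7A 10.8% to 12.9%. WNT9A, WNT7B and WNT7A followed each other too closely to be ordered, since the ranges of WNT9A and WNT7B overlapped and so did those of WNT7B and WNT7A. In VprBP sh a single ligand dominated per length. WNT6 held 71.3% to 77.1% of the summed TPM, at 376 to 435 TPM, and WNT7B 17.0% to 22.6%, at 82.9 to 130 TPM. The next ligand, WNT5A, held 1.61% to 1.72%, close to WNT3A at 1.05% to 1.70% and WNT4 at 1.14% to 1.63%. Summed over all 13 ligands, the level was 379, 356 and 347 TPM in Control sh and 488, 602 and 563 in VprBP sh. Every VprBP sh sample thus lay above every Control sh sample. Of the 11 ligands tested, 7 were called down and 3 up, against 22% and 24.5% of all genes tested. WNT10B and WNT11, which were not tested, were higher in VprBP sh. In counts not divided by length the summed ligand level was 7456 to 8343 normalized counts in Control sh samples and 6158 to 8213 in VprBP sh samples, and there the groups overlapped. WNT6 and WNT7B also lay closer together in those counts, at 3291 to 3876 and 2145 to 3435 in VprBP sh samples.

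**Figure D3:**
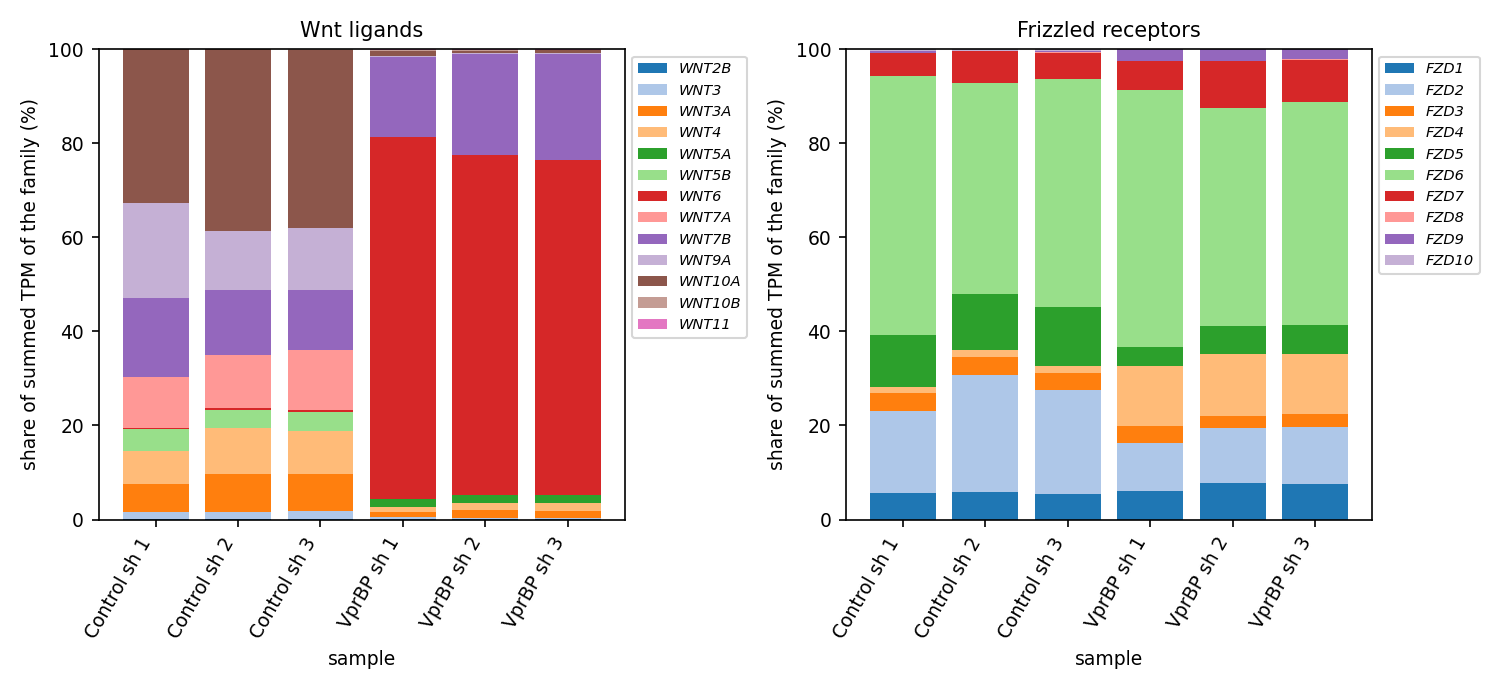
Bars give, for each of the 6 samples along the x axis, the percent of the summed TPM of the 13 ligands (left) and of the 10 Frizzleds (right) that each gene holds. WNT10A, WNT9A, WNT7B and WNT7A together fill most of the Control sh bars and WNT6 with WNT7B most of the VprBP sh bars, while FZD6 is the largest block in both groups of the right panel.

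Among the 10 Frizzled receptors, FZD4 and FZD9 were higher in VprBP sh, FZD2, FZD3, FZD5 and FZD10 fell, and FZD6, FZD1, FZD7 and FZD8 were not called. FZD4, a receptor for Norrin as well as for Wnt ligands, had 178, 187 and 166 normalized counts in Control sh and 913, 962 and 946 in VprBP sh, a log2 difference of 2.41 (standard error 0.11), given without a test since its direction was known when the list was drawn up. Samples of a group lay close together, and the groups were far apart. FZD4 (chr11:86945679-86955395, minus strand) shares 1399 exon bases with PRSS23 on the opposite strand, which is 18.9% of its exons. PRSS23 moved the other way, from 2065 to 2268 normalized counts in Control sh to 495 to 562 in VprBP sh (log2 fold change -2.04, adjusted p = 5.26e-08 from edgeR).
FZD9 was low, at 13.8, 1.08 and 8.45 normalized counts in Control sh against 57.5, 56.6 and 47.8 in VprBP sh (log2 fold change 2.79, standard error 0.50, adjusted p = 0.000596 from edgeR). Its Control sh values spread widely, and the log2 fold change was 3.40 without Control sh replicate 1. FZD5 went from 1341, 1416 and 1359 to 280, 419 and 442 normalized counts (log2 fold change -1.85, standard error 0.16, adjusted p = 3.96e-06), and FZD2 from 1134, 1580 and 1281 to 379, 439 and 463 (log2 fold change -1.64, standard error 0.14, adjusted p = 4.03e-06). In both, the groups lay far apart. FZD3 had 802 to 914 normalized counts in Control sh samples and 342 to 495 in VprBP sh samples (log2 fold change -1.09, standard error 0.14, adjusted p = 7.97e-05), and its fold change slipped under the cutoff, to -0.99, without VprBP sh replicate 2. FZD10 had 20.7, 16.1 and 21.6 normalized counts in Control sh and 0 counts in VprBP sh, at least 6.73-fold lower.
FZD6 stayed the most abundant Frizzled per length in both groups, with 44.9% to 54.9% of the summed Frizzled TPM in Control sh samples and 46.3% to 54.7% in VprBP sh samples. Its normalized counts were 3820, 3072 and 3044 in Control sh and 2179, 1861 and 1931 in VprBP sh, which passed the adjusted p but not the fold cutoff (log2 fold change -0.73, standard error 0.11, adjusted p = 0.000185 from edgeR). FZD1 likewise had a log2 difference of -0.41 (standard error 0.13, adjusted p = 0.0153). For FZD7 the groups overlapped, at 389 to 524 and 277 to 447 normalized counts, and the log2 difference of -0.21 (standard error 0.19, adjusted p = 0.338) turned to 0.0013 when scaled by library size alone. FZD8 had at most 12.1 normalized counts in any sample. FZD4 moved from 1.41% to 1.5% of the summed Frizzled TPM in Control sh to 12.6% to 13.2% in VprBP sh, where it stood next to FZD2, at 10.2% to 12.2%. The summed TPM of the 10 Frizzleds was 304, 300 and 273 in Control sh and 193, 190 and 189 in VprBP sh.

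Of the 5 co-receptors, ROR2 and RYK fell and LRP5, LRP6 and ROR1 were not called. ROR2, a receptor tyrosine kinase-like protein that binds WNT5A, had 760, 559 and 690 normalized counts in Control sh and 40.9, 14.4 and 23.5 in VprBP sh (log2 fold change -4.69, standard error 0.27, adjusted p = 2.77e-07 from edgeR). WNT5A and ROR2 thus moved in opposite directions, with the ligand at 0 counts in the group that expressed the receptor at its higher level. ROR1, the other member of that receptor family, had 108, 154 and 107 normalized counts in Control sh and 294, 224 and 197 in VprBP sh. Its groups did not overlap, and its log2 difference of 0.95 (standard error 0.21, adjusted p = 0.00223) lay just under the fold cutoff, which it passed at 1.14 without Control sh replicate 2 and 1.07 without VprBP sh replicate 3.
RYK went from 2984, 2970 and 2749 to 1619, 1362 and 1325 normalized counts (log2 fold change -1.02, standard error 0.10, adjusted p = 7.91e-06 from edgeR). This call also sat at the cutoff and was lost without Control sh replicate 1, and also without VprBP sh replicate 2, at -0.99, and without VprBP sh replicate 3, at -0.96. LRP5 and LRP6, which carry the canonical signal, were not called. LRP6 had 674 to 942 normalized counts in Control sh samples and 1015 to 1267 in VprBP sh samples (log2 fold change 0.50, standard error 0.14, adjusted p = 0.00958), and LRP5 had 3863 to 5104 and 3949 to 5878, with overlap (log2 fold change 0.27, standard error 0.16, adjusted p = 0.157).
Receptor turnover is set by RNF43 and ZNRF3, membrane ubiquitin ligases that remove Frizzleds from the surface, and by LGR4 and LGR5, which bind R-spondins and restrain those ligases. RNF43 had 1209, 956 and 1013 normalized counts in Control sh and 329, 313 and 345 in VprBP sh (log2 fold change -1.68, standard error 0.12, adjusted p = 1.01e-06 from edgeR). Its paralog ZNRF3 had 582 to 620 and 613 to 783, with overlap between groups (log2 fold change 0.19, standard error 0.12, adjusted p = 0.156). LGR4 had 1239 to 1458 and 1546 to 1752, a small difference without overlap (log2 fold change 0.32, standard error 0.09, adjusted p = 0.0108).

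**Figure D4:**
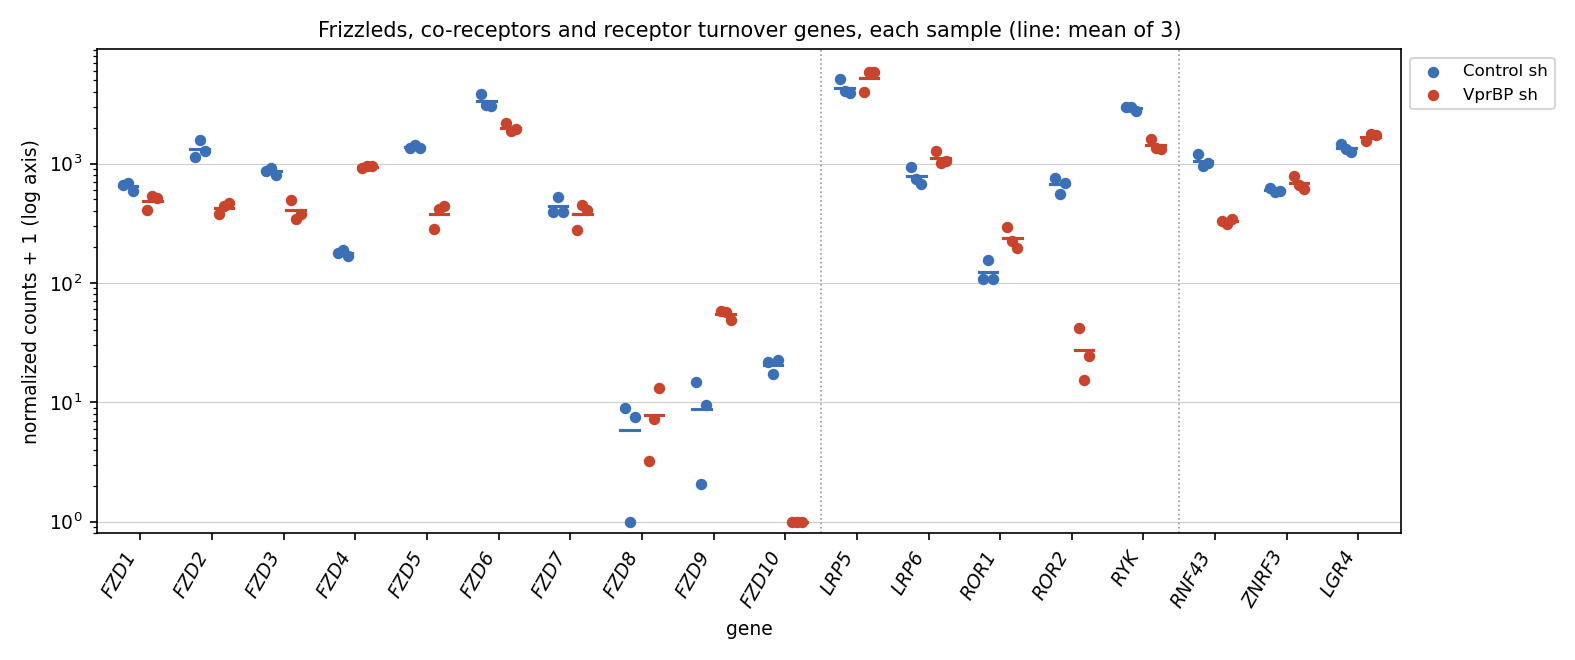
Normalized counts plus 1 (y axis, log scale) are plotted for each sample (points) and as the mean of 3 (lines) for 10 Frizzleds, 5 co-receptors and 3 receptor turnover genes along the x axis, separated by dotted lines, with Control sh in blue and VprBP sh in red. FZD4 and FZD9 have red points above blue ones by a wide margin, ROR2 shows the opposite, and the points of FZD7, FZD8, LRP5 and ZNRF3 overlap.

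Of the extracellular inhibitors and Dickkopf receptors, DKK1, KREMEN1 and KREMEN2 fell, DKK3 was lost and SFRP1 was not called. DKK3, a divergent Dickkopf whose effect on Wnt signalling is less settled than that of DKK1, had 11626, 9528 and 9457 normalized counts in Control sh and none in any VprBP sh sample, at least 3527-fold lower. It is given as a description, since its direction was known when the list was drawn up. Exons of DKK3 (chr11:11956207-12009769, minus strand) share 5681 bases with USP47 on the opposite strand, which was detected in both groups at 1379 to 1839 and 949 to 1196 normalized counts.
DKK1, a secreted protein that binds LRP5 and LRP6 and blocks the canonical branch, had 1855, 2538 and 2323 normalized counts in Control sh and 78.5, 92.6 and 94.1 in VprBP sh. The groups lay far apart, and the log2 fold change was -4.65 (standard error 0.15, adjusted p = 7.81e-09 from edgeR). KREMEN1 and KREMEN2, the membrane receptors through which DKK1 removes LRP6 from the surface, fell with it. KREMEN1 went from 4383, 4750 and 4806 to 565, 699 and 773 normalized counts (log2 fold change -2.77, standard error 0.12, adjusted p = 3.99e-08), and KREMEN2 from 1152, 960 and 938 to 81.8, 78.2 and 63.0 (log2 fold change -3.78, standard error 0.15, adjusted p = 2.24e-08). KREMEN1 lies 15.5 kb beyond the end of ZNRF3 on chromosome 22, with 1 protein-coding gene between them, and ZNRF3 was not called.
SFRP1, a secreted protein that binds Wnt ligands, had 1393, 2384 and 2452 normalized counts in Control sh and 3093, 2553 and 2610 in VprBP sh. The groups did not overlap, but Control sh replicate 1 stood well below the other two, and the difference did not pass the adjusted p (log2 fold change 0.40, standard error 0.19, adjusted p = 0.0784 from edgeR). Without Control sh replicate 1 the log2 fold change was 0.18. Among these 5 genes taken per length, SFRP1 held 9.37% to 15.4% of the summed TPM in Control sh samples and 76.9% to 82.3% in VprBP sh samples, while that sum went from 558, 614 and 594 TPM to 156, 135 and 135 TPM.

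Within the destruction complex, AXIN2 and APC rose, and AXIN1, GSK3B and CTNNB1 were not called. AXIN2 is both a scaffold of the complex and one of the most widely used readouts of canonical signalling, since beta-catenin and TCF factors induce it. It went from 0, 3 and 4 counts to 913, 1150 and 1727, or 0, 3.23 and 3.75 against 1009, 1183 and 1311 normalized counts. The groups lay far apart, and the log2 fold change was 8.83 (standard error 0.31, adjusted p = 1.01e-08 from edgeR). In GENCODE 44, 1316 exon bases of AXIN2 also belong to a gene on the same strand, ENSG00000266076, so reads could be split between them. The same holds for 230 exon bases of APC and for 4326 of RNF43. The partners of AXIN2 and APC were not among the genes analysed, whose counts sum to at least 10. The RNF43 partner averaged 10.7 normalized counts in the controls and 1.77 after knockdown, where RNF43 averaged 1059 and 329. Whether reads were split was not tested. AXIN1, the constitutive scaffold, moved opposite to AXIN2, from 2009, 1851 and 1610 to 774, 1133 and 1019 normalized counts. It passed the adjusted p but not the fold cutoff (log2 fold change -0.90, standard error 0.14, adjusted p = 0.000284), which it passed at -1.03 without VprBP sh replicate 2.
APC, the scaffold that is often truncated in colorectal cancer, had 388, 391 and 389 normalized counts in Control sh and 1693, 1331 and 1350 in VprBP sh (log2 fold change 1.91, standard error 0.12, adjusted p = 4.03e-07 from edgeR). GSK3B, the kinase of the complex, had 3275 to 3798 and 2456 to 2715 normalized counts (log2 fold change -0.42, standard error 0.09, adjusted p = 0.00175). CTNNB1, which encodes beta-catenin, had 5284 to 5461 and 6705 to 6975 (log2 fold change 0.34, standard error 0.07, adjusted p = 0.00178). Both differences were small against their levels, although the groups did not overlap.
NKD1, an antagonist of Dishevelled that canonical signalling induces, rose from 40.2, 49.5 and 51.6 to 849, 1086 and 1088 normalized counts (log2 fold change 4.41, standard error 0.16, adjusted p = 1.5e-08 from edgeR). Its paralog NKD2 went from 41, 19 and 11 counts to 0 counts in every sample, at least 8.97-fold lower, and was too low to be tested.
Among the TCF factors, TCF7 fell and the others were not called. TCF7, which canonical signalling also induces in many tissues, went from 240, 193 and 151 to 19.9, 37.0 and 24.3 normalized counts (log2 fold change -2.84, standard error 0.27, adjusted p = 8.98e-06 from edgeR). TCF7L2 had 577 to 598 and 589 to 615 normalized counts, with a log2 difference of 0.04 (standard error 0.09, adjusted p = 0.703) that turned to -0.06 with TMM factors and -0.08 with DESeq2. For TCF7L1, known mainly as a repressor, the ranges were 701 to 759 and 651 to 931, with a log2 difference of 0.18 (standard error 0.14, adjusted p = 0.254). Genes of this pathway that canonical signalling is known to induce, grouped here after their values were seen, did not move together, since AXIN2 and NKD1 rose, RNF43, DKK1 and TCF7 fell, and ZNRF3 was not called.

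**Figure D5:**
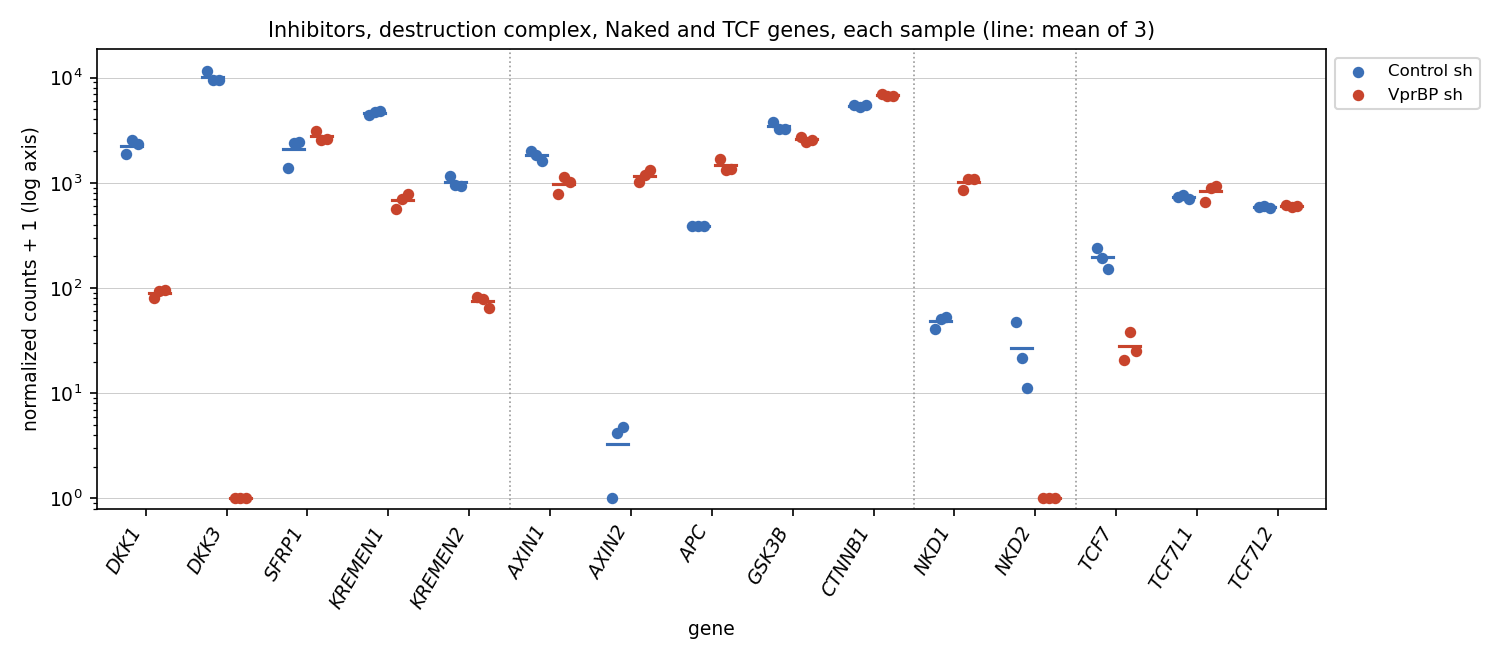
Normalized counts plus 1 (y axis, log scale) are plotted for each sample (points) and as the mean of 3 (lines) for extracellular inhibitors and Dickkopf receptors, destruction complex genes, NKD1 and NKD2, and TCF genes along the x axis, separated by dotted lines, with Control sh in blue and VprBP sh in red. AXIN2 and NKD1 have red points far above their blue points, DKK3 has red points at 0 counts, and TCF7L2 has all 6 points close together.

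The rest of the pathway was read from a list of 75 other genes, of which 62 were analysed and 55 tested, and 11 were called up and 12 down. That is 41.8% of those tested, near the 46.4% of all genes, and the median log2 fold change was 0.17. The largest changes among called genes that averaged 100 normalized counts or more in either group are given. Among those that rose were TLE2 and TLE4, which encode Groucho co-repressors of TCF factors. TLE2 had 16.1, 2.15 and 5.63 normalized counts in Control sh and 1111, 1569 and 1601 in VprBP sh (log2 fold change 7.51, standard error 0.35, adjusted p = 5.98e-08 from edgeR), and TLE4 had 10.3, 4.30 and 2.82 and 865, 1001 and 1021 (log2 fold change 7.39, standard error 0.25, adjusted p = 9.90e-09). Both were highest in replicate 1 of the control group, and without it the log2 fold changes were 8.43 and 8.05. APCDD1, a membrane inhibitor that canonical signalling induces, went from 2, 1 and 0 counts in the controls to 274, 310 and 283 normalized counts after knockdown, a ratio of summed counts of 276 (95% interval 94.1 to 1340). The APCDD1 log2 fold change was 7.95 in the fit, 8.86 when Control sh replicate 1 was left out and 7.33 when replicate 3 of that group was. CXXC5, which can bind Dishevelled, rose by 2.43 on the log2 scale (standard error 0.15, adjusted p = 4.09e-07), and TMEM198 by 2.77 (standard error 0.23, adjusted p = 3.39e-06).
Of those that fell, VANGL2 and PRICKLE2 belong to the planar cell polarity branch. VANGL2 had 1983, 1685 and 1820 normalized counts in Control sh and 15.5, 10.3 and 13.7 in VprBP sh (log2 fold change -7.11, standard error 0.16, adjusted p = 1.07e-09 from edgeR), and PRICKLE2 had 136 to 247 and 44.2 to 53.1 (log2 fold change -1.86, standard error 0.25, adjusted p = 9.44e-05). PYGO1, a partner of BCL9 in the beta-catenin complex, had 165, 89.3 and 88.2 normalized counts in Control sh samples and 3, 0 and 0 counts in VprBP sh samples, a ratio of summed counts of 119 (95% interval 40.4 to 581). All 3 counts were in VprBP sh replicate 1, and without it the group was at 0. The PYGO1 log2 fold change was -6.73 in the fit, -9.88 without that replicate, which is no bound, and -6.04 without VprBP sh replicate 3. CAPRIN2 fell by 2.41 on the log2 scale (standard error 0.16, adjusted p = 7.13e-07) and CSNK1G1, a casein kinase, fell by 1.72 (standard error 0.11, adjusted p = 6.46e-07).
Genes known as targets of beta-catenin and TCF factors outside the 50 were listed as well. Of 20, 19 were analysed and 18 tested, and 5 were called up and 9 down. That is 77.8% against 46.4% of all genes, with a median log2 fold change of -0.94 against 0.08. The list was chosen with earlier results of these data known, and no test was made over it. Of the 18, 4 had under 10 counts in every sample of a group, against 13.8% of all genes tested. With at least 10 counts required in every sample, 13 were tested, and 4 were called up and 5 down. Under that filter 4690 of all 13103 genes tested were called. MMP7, a matrix metalloproteinase, had 1243, 1388 and 1415 normalized counts in Control sh and 0 counts in VprBP sh, at least 466-fold lower. CCND1, which encodes cyclin D1, went from 123667, 115887 and 114505 to 4486, 5337 and 5534 normalized counts (log2 fold change -4.53, standard error 0.11, adjusted p = 1.65e-09 from edgeR). FOSL1, an AP-1 subunit, had 3258 to 3648 and 10.3 to 38.7 normalized counts (log2 fold change -7.46, standard error 0.30, adjusted p = 2.32e-08), and -8.23 without VprBP sh replicate 1. L1CAM, an adhesion molecule, had 232 to 497 and 0.76 to 21.0 (log2 fold change -5.82, standard error 0.63, adjusted p = 1.90e-05), and its log2 fold change was -8.14 without VprBP sh replicate 1 and -5.15 without VprBP sh replicate 3. EPHB2, an ephrin receptor of the intestinal crypt, fell by 2.79 on the log2 scale (standard error 0.11, adjusted p = 1.71e-08), while its relative EPHB3 rose by 1.20 (standard error 0.16, adjusted p = 7.24e-05). APCDD1 stands in both lists. SOX9, a transcription factor of stem and progenitor cells, rose from 996, 533 and 502 to 2724, 2505 and 2443 normalized counts (log2 fold change 1.92, standard error 0.23, adjusted p = 3.96e-05). EDN1, which encodes endothelin-1, had 259 to 294 normalized counts in the control samples and 1642, 688 and 647 after knockdown (log2 fold change 1.85, standard error 0.33, adjusted p = 0.000593), and 1.28 without VprBP sh replicate 1, its highest sample.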

How the data were processed

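RNA-seq was analysed for 3 Control sh and 3 VprBP sh samples, assigned from the sample titles. Per the labels and the paper's methods, the authors used STAR to align single-end reads (hg38) and Partek Flow to obtain 1 estimated count per gene and sample, without normalization. Whole numbers make up 59.8% of these deposited estimated counts (tolerance 1e-09). The labels name a SMARTER kit and the methods a stranded KAPA kit, and whether counting used strand is not stated. Estimated counts were rounded and tested across all genes with edgeR 4.0.16 in R 4.3.3 (quasi-likelihood test, upper quartile factors at quantile 0.75, filterByExpr with a minimum count of 10), which left 16756 genes. Benjamini-Hochberg adjustment ran over all of these. The authors' own test, part of Partek Flow, was not used. A called gene had an adjusted p under 0.05 and a fold change over 2, and a standard error was taken as the absolute log2 fold change over the root of the F statistic.

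Where a group was at 0 counts, a fold change is a bound against 3 counts per sample. Where a group had at most 3 counts in each sample, it is a ratio of summed counts with an exact 95% interval. Both cover counting error only. TPM used exon lengths of GENCODE 44, which differs from the release the methods name, and 21460 of the 21494 genes matched by identifier. Of the 47 members analysed, 45 have the same start and end in both. In that annotation, 3 of the 47 overlap a protein-coding gene on the same strand and 8 on the other.

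The members and lists were chosen with earlier results of these data known. The text names all 50 members, DCAF1, markers, and of the other pathway and target genes at most 5 called up and 5 called down per list. PRSS23, USP47 and ST7L were named for their overlap. Alternatives were TMM factors, library size alone, DESeq2 1.42.0, limma-voom (limma 3.58.1), counts not rounded, 2 other filters, a replicate block, glmTreat, leaving out each replicate, and summing replicates 2 and 3. On simulated counts in which 200 genes had a log2 change of 2, edgeR recovered 100% with 0 false calls over 16579 genes, DESeq2 99.5% with 0 and limma-voom 100% with 1. The simulation had few changed genes, balanced in direction, with 1 common spread and independent replicates. In the data 46.4% of genes were called, 853 were at 0 counts in 1 group, and replicate 1 stood apart. The simulation therefore checks the code and gives no error rate for these data. Figures were drawn with matplotlib 3.10.9 in Python 3.11.15.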

Additional observations from a re-analysis of the deposited data

How the results depend on the processing

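Direction and call held in 648 of 679 refits of the 43 genes under the alternatives, and in every refit that tested the gene for 35 of them. The others were WNT7B, FZD3, RYK, ROR1, AXIN1 and WNT2B, whose calls changed, and FZD7 and TCF7L2, whose signs did, the FZD7 log2 fold change to 0.0013 with library size alone and the TCF7L2 log2 fold change to -0.057 with TMM and -0.081 with DESeq2. EPHB3 lost its call with glmTreat. Requiring at least 10 counts in every sample removes genes that are off in a group. Of all 13103 genes then tested, 2694 were called up and 1996 down. Of the 34 members tested, 4 were called up and 15 down. Of 45 other pathway genes, 5 were called up and 7 down, and of 13 target genes, 4 up and 5 down. WNT5A, WNT5B, WNT6, WNT7A, WNT9A, FZD9, FZD10, DKK3 and AXIN2 were not tested under this filter. They had 15 refits, where the other members had 16. The DCAF1 log2 fold change no longer passed the adjusted p with library size alone (-0.37, adjusted p = 0.0851) or with replicates 2 and 3 summed (-0.46, adjusted p = 0.0839). The cause of these 2 losses was not tested. The glmTreat test asks for a change beyond 2-fold, which an estimate of -0.58 could not pass. Leaving out 1 replicate gave 8 to 10 members up and 19 to 21 down, and -0.82 to -0.46 for DCAF1. Of the 17197 to 17323 genes then tested, 4063 to 4239 were called up and 3755 to 3985 down. Over all genes the median log2 fold change was 0.08 with upper quartile factors, 0.29 with library size alone and -0.04 with DESeq2, so differences of about that size depend on the scaling. In both groups replicates 2 and 3 lay closer to each other (chi-square per degree of freedom 2.45 and 2.32) than to replicate 1 (16.1 to 26.6). When they were summed, 9 members were called up and 21 down, and 8340 of all 18038 genes tested were called. The groups share replicate numbers, but deviations of same-numbered samples correlated at -0.18, -0.06 and -0.12, none of them the best match, so the numbers were not taken as pairs. With a replicate block, 7 members were called up and 20 down, 7686 of all 16756 genes were called, and DCAF1 was at -0.60 (adjusted p = 0.0274). Among results given here it changed the call of WNT7B only (WNT7B log2 fold change 0.99). Genes near 3 counts, among them WNT10B, WNT11 and FZD8, are limited by depth.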
